A study of Saccharomyces cerevisiae with 6 samples.

Results

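The genes described here are the aryl-alcohol dehydrogenase (AAD) family of budding yeast and its Old Yellow Enzymes. They were taken by name, and the set was chosen by earlier FPKM values of these tables, among them a higher AAD4 level in the null strains than in WT. The members are AAD3, AAD4, AAD6, AAD10, AAD14, AAD15, AAD16, OYE2 and OYE3, or 9 of the 7126 features in the tables. Polyadenylated RNA was sequenced from 3 strains grown in rich glucose medium (YPD), with 2 libraries each, in a study whose title concerns aneuploidy in cells lacking thiol peroxidases. D8B and D8A carry the same genotype label, MATa his3 leu2 met15 ura3 with deletions of TSA1, TSA2, DOT5, AHP1, PRX1, GPX1, GPX2, GPX3 and SRX1. These are 8 thiol peroxidases and the sulfiredoxin gene, replaced by KAN (TSA1, GPX3), LEU2 (TSA2), MET15 (DOT5), HIS3 (AHP1), URA3 (PRX1, GPX1), HYG (GPX2) and NAT (SRX1) markers. The labels do not say how D8B and D8A differ. The wild type (WT) is MATa with other marker alleles, ade2-1, trp1-1, can1-100, leu2-3, his3-11,15 and ura3, and the entries GAL and [phi+]. HIS3 and KanMX6 are inserted between YKL006C-A and YKL006W on chromosome XI, for which its source is labelled Wtmonosome-XI. None of the 9 genes lies on that chromosome. All strains are labelled S288c. The comparisons with WT therefore set strains with unlike marker alleles against each other, besides the deletions, and those effects cannot be told apart. The shared S288c label does not show that the strains match elsewhere in the genome. Other differences in background, also near the chromosome ends, were not tested.

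The AAD proteins are aldo-keto reductase relatives, named for their similarity to an enzyme of the wood-rotting fungus Phanerochaete chrysosporium that reduces aromatic aldehydes to alcohols with NADPH. Their substrates in yeast are poorly known, and most copies lie near chromosome ends. Old Yellow Enzymes are flavin-containing NADPH oxidoreductases that reduce the double bond of unsaturated aldehydes and ketones, compounds that arise when lipids are oxidised. Yap1 is the main yeast factor of the response to peroxides and thiol-reactive chemicals, and AAD4, AAD6, OYE2 and OYE3 are known among the genes that respond to it. The peroxidase HYR1, called GPX3 in the labels and deleted in D8B and D8A, is known to pass the peroxide signal to Yap1.

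Levels are the deposited FPKM, by definition a fragment count divided by the length of the feature and by the depth of the library. The depth estimated from the deposited intervals was 14140000 and 10630000 fragments for D8B, 4020000 and 8050000 for D8A, and 9140000 and 10110000 for WT. D8A replicate 1 was thus the shallowest library, and it had the most features listed at 0, 258 against 108 to 140 elsewhere. Of the 9 genes labelled as deleted, 8 held 0 to 9.94 FPKM in the null libraries, against 27.3 to 2029 in WT. SRX1 went against its label, with 654 and 584 FPKM in the libraries labelled D8B, 319 and 415 in those labelled D8A, and 52.8 and 76.8 in WT. The labelled mating type was checked on marker genes. Of the a-type markers, MFA1 and MFA2, which encode a-factor, lay between 2771 and 6269.6 FPKM in the 6 libraries, STE2 between 113 and 199.7, BAR1 between 33.7 and 66.1, and ASG7 between 3.31 and 9.75. Of the alpha-type markers, MF(ALPHA)1 lay between 1.44 and 5.38 FPKM, MF(ALPHA)2 between 19.2 and 31.9, STE3 between 8.13 and 19.0, and SAG1 between 8.18 and 15.7. The ASG7 range overlapped those of MF(ALPHA)1, STE3 and SAG1, and the other 4 a-type markers were above all of them.

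Because the choice used comparisons with WT, the members' levels and differences from WT are a description, and where the fit's calls are counted for them the count supports nothing. The comparison of D8B with D8A does not enter the mean of both against WT and was tested in limma, with p-values adjusted over all 6925 features kept. Since earlier values of these tables were known when the set was chosen, this test is not shown to be independent of the choice. RNA came from whole cultures, where fewer cells with a transcript and less of it per cell cannot be told apart. All 9 members passed the filter on low values, a mean of at least 1 FPKM.

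The 9 genes did not move as a block. OYE2, OYE3 and AAD4 lay above WT in all 4 null libraries, AAD10 lay below WT in all 4, and AAD6 and AAD16 were several-fold higher in D8A than in D8B or WT. By adjusted p, 2 of 9 members passed for the mean of both null strains, AAD4 higher and AAD10 lower, where 6.45% of features passed, 1.55% higher and 4.91% lower. For D8B 1 passed, AAD10, where 4.9% of features passed, 1.21% higher and 3.68% lower. For D8A 4 passed, AAD4, AAD6 and AAD16 higher and AAD10 lower, where 5.05% of features passed, 1.23% higher and 3.83% lower. Nothing is read from these counts, since the set was chosen in view of these comparisons, which also share the WT libraries. Libraries did not overlap for 3 members above WT and 2 below in D8B, where 30.0% and 25.9% of features did the same, and for 7 above and 1 below in D8A, where 25.3% and 26.1% did. Between the null strains, 1 member was higher and 6 were lower in D8B without overlap, where 19.7% and 15.1% of features did the same. The calls depended on single libraries and on the fit. Without WT replicate 2 no comparison with WT called AAD10 (log2 difference -1.44 for the mean), AAD6 or AAD16 (1.59 and 1.45 for D8A). AAD4 was not called without WT replicate 1 or 2 (0.79 and 0.83 for the mean) or, for the mean, without D8B replicate 1 or 2 (0.76 and 0.85). With the replicate number as a block AAD4 was called neither for the mean nor for D8A. The median log2 difference of the members was 0.07 for D8B minus WT and 0.65 for D8A minus WT, and over all features it was 0.06 and -0.01.

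**Figure D1:**
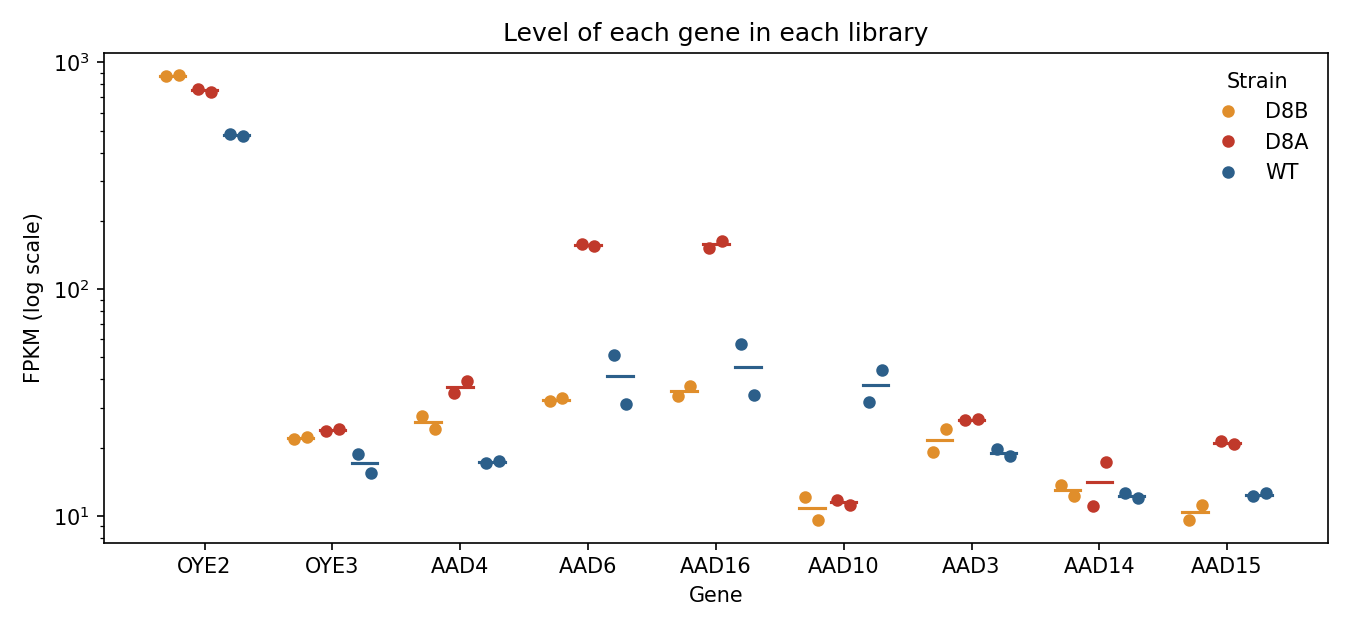
Level of each gene in FPKM (vertical axis, log scale) in each library, with D8B, D8A and WT side by side; each point is 1 library and the short line is the mean of the 2 libraries of a strain. AAD6 and AAD16 stand at 152 to 164 FPKM in D8A, above all other libraries, and AAD10 stands at 9.57 to 12.1 FPKM in the null libraries, below the WT points at 31.9 and 44.0.

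OYE2 (YHR179W, chromosome VIII, 462502 to 463704, plus strand, R64) encodes the main Old Yellow Enzyme and was the most abundant member in every strain. It held 869.6 and 877 FPKM in D8B, 761 and 742 in D8A, and 485 and 474 in WT. The 3 strains did not overlap, D8B was highest and WT lowest. On the log2(FPKM + 1) scale, the difference was 0.86 ± 0.22 (SE) for D8B minus WT and 0.65 ± 0.22 for D8A minus WT. D8B and D8A did not differ beyond the fit's error, at 0.22 with a 95% interval of -0.30 to 0.73 (limma adjusted p = 0.797).

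OYE3 (YPL171C, chromosome XVI, 226169 to 227371, minus strand), the second Old Yellow Enzyme, was a low-abundance gene beside OYE2. It held 21.8 and 22.3 FPKM in D8B, 23.6 and 24.2 in D8A, and 18.7 and 15.4 in WT. All 4 null libraries lay above both WT libraries. Over all 4 null libraries, 3 members lay above WT and 1 below without overlap, as did 15.2% and 16.3% of all features. The log2 difference was 0.36 ± 0.19 (SE) for D8B minus WT and 0.47 ± 0.19 for D8A minus WT. D8B and D8A differed by -0.11 with a 95% interval of -0.55 to 0.33 (limma adjusted p = 0.879). OYE2 exceeded OYE3 by a ratio of 39.3 to 39.9 in D8B, 30.6 to 32.2 in D8A and 25.9 to 30.7 in WT. Both genes are 1203 bp long, so this ratio compares levels at equal length. Their reads can be separated, since the coding sequences were 74.6% identical and no 50-base stretch of either occurs elsewhere in the genome.

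AAD4 (YDL243C, chromosome IV, 17577 to 18566, minus strand), one of the AAD genes known to be induced by oxidants, held 27.7 and 24.2 FPKM in D8B, 34.9 and 39.4 in D8A, and 17.1 and 17.5 in WT. The strains did not overlap, and D8A was highest. The log2 difference was 0.56 ± 0.19 (SE) for D8B minus WT and 1.06 ± 0.19 for D8A minus WT. D8B lay below D8A by a log2 difference of -0.50, with a 95% interval of -0.93 to -0.07 for this gene alone, which did not pass over all features (limma adjusted p = 0.475).

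AAD6 (YFL056C, chromosome VI, 14793 to 15431, minus strand) and AAD16 (YFL057C, chromosome VI, 14305 to 14763, minus strand) are neighbours with 29 bp between them. The R64 annotation from RefSeq treats them as a single AAD6 pseudogene of 1127 bp, in which the reading frames are displaced by a frameshift. AAD6 is thus the front part and AAD16 the rear part of what is 1 gene in other members of the family. The site was located by aligning the joined stretch to the longer members, since it shows why the tables list a pair of features here. AAD3, AAD4, AAD10 and AAD14 each carry 1 more base than AAD6 at the same place, shown as a capital letter, placed in its run of G as aligned, with 20 bases on either side, and the AAD6 line shows the same place with nothing in capitals.
AAD3: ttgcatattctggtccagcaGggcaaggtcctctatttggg
AAD4: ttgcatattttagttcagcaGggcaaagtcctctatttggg
AAD10: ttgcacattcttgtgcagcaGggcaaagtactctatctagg
AAD14: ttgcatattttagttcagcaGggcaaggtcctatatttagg
AAD6: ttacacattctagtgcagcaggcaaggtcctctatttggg
These stretches are chrIII:314376-314416 (plus strand), chrIV:18169-18209 (minus), chrX:727636-727676 (plus), chrXIV:16713-16753 (minus) and chrVI:14897-14936 (minus) of R64. Downstream of it the AAD6 frame ends at the stop codon and the AAD16 feature opens at a start codon, both in capitals in the 68 bases of chrVI:14746-14813 (minus strand).
AAD6 to AAD16: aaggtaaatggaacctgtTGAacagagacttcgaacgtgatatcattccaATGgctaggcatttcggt

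AAD6 held 32.2 and 33.0 FPKM in D8B, 159 and 155 in D8A, and 51.4 and 31.2 in WT. AAD16 held 33.8 and 37.5 FPKM in D8B, 152 and 164 in D8A, and 57.0 and 34.1 in WT. For both features the D8A libraries stood apart from the other 4, whereas D8B overlapped WT, where replicate 1 was well above replicate 2. Without WT replicate 1 the estimate for D8B minus WT changed sign, to 0.06 on the log2 scale for each feature. The mean AAD6 level in D8A was 3.79 times that of WT, and in D8B 0.789 times. The log2 difference for AAD6 was -0.29 ± 0.25 (SE) for D8B minus WT and 1.94 ± 0.25 for D8A minus WT. For AAD16 it was -0.30 ± 0.26 for D8B minus WT and 1.81 ± 0.26 for D8A minus WT.

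Between the null strains, AAD6 and AAD16 were the 2 members of 9 that passed, both lower in D8B, against a background of 0.332% of features in either direction and 0.116% lower. AAD6 fell by 2.23 ± 0.25 (SE) on the log2 scale in D8B relative to D8A, with a 95% interval of -2.82 to -1.64 (limma adjusted p = 0.0196). AAD16 fell by 2.12 ± 0.26 (limma adjusted p = 0.0226). The D8B mean was 20.8% of the D8A mean for AAD6 and 22.6% for AAD16. The features are parts of 1 annotated pseudogene and are not independent results. Both calls were lost without D8A replicate 1, without either D8B library, with quantile-normalized or median-centred libraries and with the replicate number as a block, where the adjusted p was at most 0.105 for AAD6 and 0.140 for AAD16. The log2 difference itself lay between -2.33 and -2.16 for AAD6 in all 16 alternatives. The level of AAD16 was 1.05 and 1.14 times that of AAD6 in D8B, 0.958 and 1.06 times in D8A, and 1.11 and 1.09 times in WT, so the front and rear parts kept nearly the same ratio in every library.

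**Figure D2:**
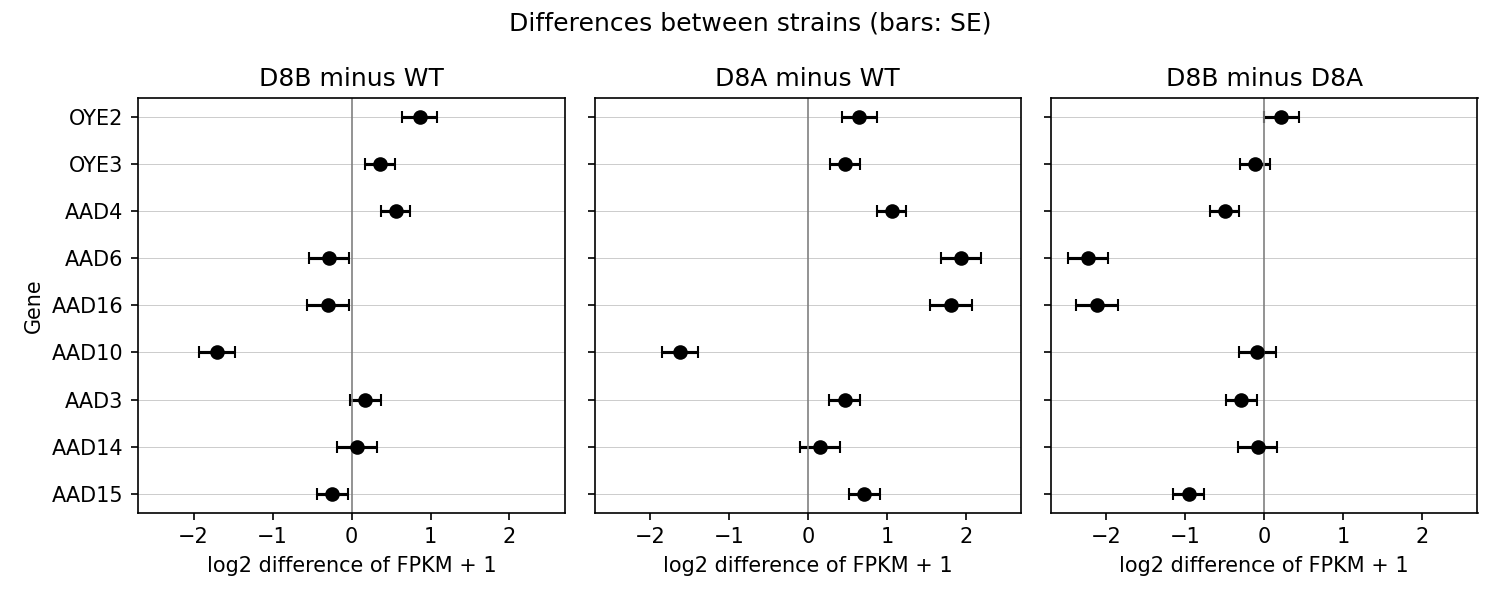
Differences in log2(FPKM + 1) for each gene (rows) between D8B and WT, D8A and WT, and D8B and D8A, as estimates of the limma fit with bars for the SE. AAD6 and AAD16 lie at -0.29 and -0.30 for D8B minus WT, at 1.94 and 1.81 for D8A minus WT, and at -2.23 and -2.12 for D8B minus D8A, whereas AAD10 lies at -1.71 and -1.62 against WT.

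AAD10 (YJR155W, chromosome X, 727405 to 728271, plus strand), an AAD gene whose annotated frame lacks the front part of the longer members, was the 1 member lower than WT in both null strains. It held 12.1 and 9.57 FPKM in D8B, 11.8 and 11.2 in D8A, and 31.9 and 44.0 in WT. The null libraries and the WT libraries did not overlap. The null-strain means were 28.6% of the WT mean for D8B and 30.4% for D8A, and the log2 difference was -1.71 ± 0.23 (SE) for D8B minus WT and -1.62 ± 0.23 for D8A minus WT. D8B and D8A differed by -0.09 with a 95% interval of -0.62 to 0.45 (limma adjusted p = 0.936). AAD10 was the fourth member by level in WT, and in the null strains it was the eighth of 9 in D8B and the last in D8A.

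The remaining members are AAD3, AAD14 and AAD15. AAD3 (YCR107W, chromosome III, 313890 to 314981, plus strand), a full-length copy 1.64 kb from the chromosome end, held 19.1 and 24.3 FPKM in D8B, 26.5 and 26.7 in D8A, and 19.7 and 18.3 in WT. D8A lay above WT, with a log2 difference of 0.47 ± 0.20 (SE), and D8B overlapped it. AAD14 (YNL331C, chromosome XIV, 16118 to 17248, minus strand), the longest copy, held 13.7 and 12.3 FPKM in D8B, 11.0 and 17.2 in D8A, and 12.6 and 12.0 in WT, with overlap between D8A and WT. For D8B minus D8A, AAD3 stood at -0.29 and AAD14 at -0.08 on the log2 scale (limma adjusted p = 0.691 and 0.943).

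AAD15 (YOL165C, chromosome XV, 1647 to 2078, minus strand) is a rear fragment of 432 bp. It held 9.60 and 11.1 FPKM in D8B, 21.3 and 20.7 in D8A, and 12.3 and 12.6 in WT, so that D8A was highest and D8B lowest with no overlap. The difference of D8B minus D8A was -0.96 ± 0.20 (SE) on the log2 scale and did not pass over all features (limma adjusted p = 0.130). It passed in 2 of 16 alternatives, with robust variances and when features under 300 bp were left out. These values rest on an estimated 24 to 48 fragments per library, the fewest of the family. AAD15 was 97.7% identical to the rear part of AAD3, the closest pair in the family, and 89.0% identical to AAD16 over 418 aligned bases.

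How far the AAD copies can share reads was measured on the R64 sequence. Of the 50-base stretches of a member, the share found elsewhere in the genome was 43.9% for AAD16, 35.2% for AAD15, 25.8% for AAD3 and 21.4% for AAD4. It was 8.23% for AAD14, 6.27% for AAD6 and 2.44% for AAD10. With 100-base stretches it was 14.7% for AAD16, 7.55% for AAD3, 3.14% for AAD4, 0.901% for AAD15 and 0 for AAD6, AAD10 and AAD14. AAD16 and AAD15 thus have the least certain values at 50 bases. Of the 50-base stretches of AAD16, 19.3% also lie in AAD3, 19.0% in AAD4 and 14.6% in AAD15, and of those of AAD15, 31.3% also lie in AAD3. The sources used here give no read length. The part of read sharing in the AAD15 and AAD16 values was not tested.

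The summed level of the 7 AAD genes was 148 and 152 FPKM in D8B, 416 and 433 in D8A, and 202 and 170 in WT. AAD6 and AAD16 made up 44.5% and 46.4% of it in D8B, 74.6% and 73.4% in D8A, and 53.7% and 38.5% in WT. AAD6 and AAD16 are parts of the same annotated pseudogene, and FPKM is already divided by length. The sum therefore counts that locus under both features, which raises the pair's share and lowers that of AAD10. Without that pair, the other 5 genes summed to 82.3 and 81.5 FPKM in D8B, 106 and 115 in D8A, and 93.5 and 104 in WT. AAD10 alone was 8.19% and 6.30% of the AAD sum in D8B, 2.84% and 2.59% in D8A, and 15.8% and 25.9% in WT.

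**Figure D3:**
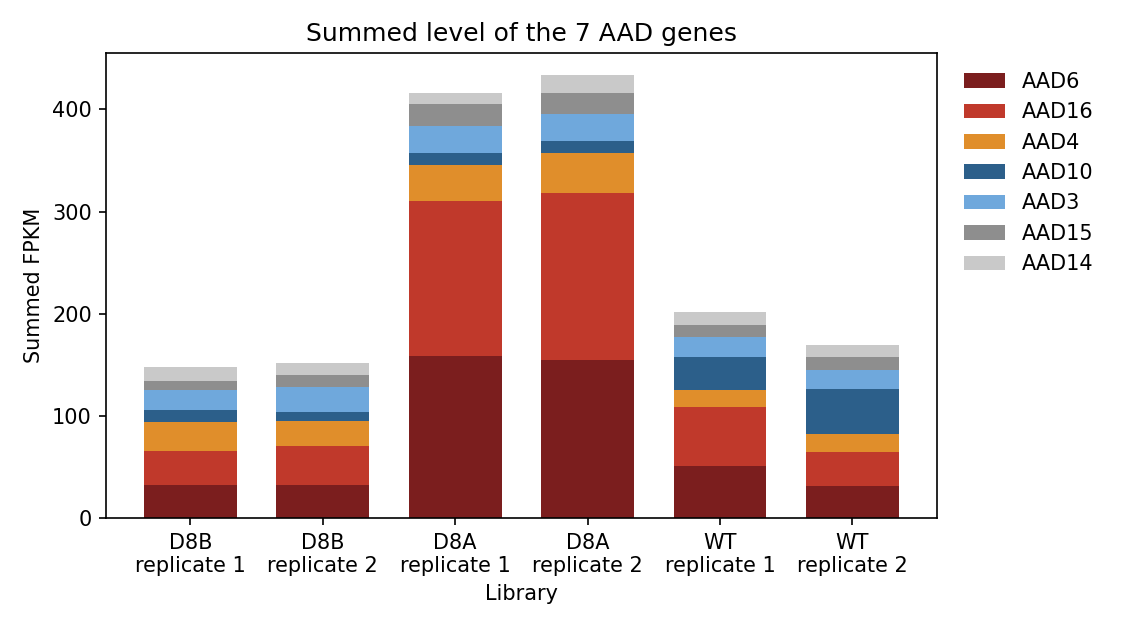
Summed FPKM of the 7 AAD genes (vertical axis) in each library, stacked by gene, with D8B, D8A and WT from left to right. The D8A bars reach 416 and 433 FPKM, mostly AAD6 and AAD16, and the AAD10 segment is larger in WT than in the null strains. AAD6 and AAD16 are parts of the same annotated pseudogene, so the bars count that locus under both features.

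In the order of levels in WT, OYE2 stood alone at the top, followed by AAD16, AAD6 and AAD10, whose libraries overlapped between 31.2 and 57.0 FPKM. AAD3, AAD4 and OYE3 followed at 15.4 to 19.7 FPKM and overlapped in part, and AAD15 and AAD14 were lowest at 12.0 to 12.6. In D8A the AAD16 and AAD6 pair was again second, followed by AAD4. Levels of the shorter features are less comparable with the others, because the deposited FPKM of AAD6, AAD15 and AAD16 was 1.34 to 1.72 times the middle of its own interval, against 1.03 to 1.24 times for the longer members. For OYE2, AAD6 and AAD16 it lay above the upper bound of that interval in every library. In WT replicate 1, OYE2 held 485 FPKM against an upper bound of 425.

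The Yap1 element TTACTAA, searched on both strands (TTAGTAA on the other strand), lay within 300 bases before the start of AAD6 and OYE3, and within 600 bases of AAD4 and OYE2 as well. That is 2 and 4 of 9 members, against 7.95% and 13.8% of all features of 300 bp or more with a matching annotation. AAD4, AAD6 and OYE3 each held a pair of matches in opposite orientation. The related TGACTAA was found in the windows of AAD15 alone, and in 3.76% of all 300-base windows. The matching stretches of the 4 members are shown with the element in capitals. Other shared sequence was not searched for.
AAD4: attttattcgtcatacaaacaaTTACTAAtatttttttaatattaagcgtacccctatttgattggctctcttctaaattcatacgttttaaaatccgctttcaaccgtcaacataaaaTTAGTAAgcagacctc
AAD6: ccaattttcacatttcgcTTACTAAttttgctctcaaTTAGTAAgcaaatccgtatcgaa
OYE2: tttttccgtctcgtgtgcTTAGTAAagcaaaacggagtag
OYE3: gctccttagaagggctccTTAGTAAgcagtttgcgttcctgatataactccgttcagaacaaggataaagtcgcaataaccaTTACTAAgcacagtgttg
They are chrIV:18907-19041 (minus strand), chrVI:15632-15691 (minus), chrVIII:462157-462196 (plus) and chrXVI:227502-227601 (minus) of R64. The matches in AAD4 begin 453 and 356 bases before its annotated start, those in AAD6 242 and 223 bases, that in OYE2 327 bases and those in OYE3 212 and 148 bases. The AAD4 match at 453 bases lies inside the neighbouring feature YDL242W (chromosome IV, 18959 to 19312). AAD4 starts inside the family's common sequence, since the 138 bases before its start were 94.9% identical to the front of AAD14. The same holds for AAD10, with 79.4% identity over 262 aligned bases before its start. The windows of AAD16 lie mostly inside AAD6, the front part of the same annotated pseudogene, and are not a separate promoter. Of the members with the element, OYE2, OYE3 and AAD4 stood above WT in all null libraries, and AAD6 did so in D8A and not in D8B. Of those without it in either window, AAD3, AAD15 and AAD16 also stood above WT in D8A, AAD14 overlapped WT and AAD10 stood below. AAD16 is not a separate case without the element, since AAD6 in front of it holds the element. The set was chosen in view of differences from WT, and a link between element and level was not tested. A match is a string of letters and no evidence of binding.

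The genes beside the members were examined next, since 7 of the 9 lie within 17.6 kb of a chromosome end. Of 72 tested features within 10 kb of a member, 0 passed as higher and 5 as lower for the mean of both null strains (limma), against 1 and 11 at an unadjusted p under 0.05. Over all features 1.55% passed as higher and 4.91% as lower, so the counts of 0 and 5 that passed are near the background. Counts at an unadjusted p, here and below, are given without the share of all features, and nothing is read from them. The closest called neighbour was YJR154W, an uncharacterised gene upstream of AAD10 on the same strand. It held 7.34 and 6.18 FPKM in D8B, 8.02 and 5.19 in D8A, and 28.8 and 37.8 in WT, and fell by 2.16 ± 0.23 (SE; limma adjusted p = 0.00172), a call kept in all 16 alternatives. AAD10 and YJR154W were thus both low in the same 4 libraries, while the other tested neighbours of AAD10 did not pass.

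Beside AAD4, the neighbour YDL241W fell by 1.93 (limma adjusted p = 0.00188), with 62.5 and 45.2 FPKM in D8B, 51.7 and 67.1 in D8A, and 206 and 226 in WT. YDL240C-A, a 138 bp feature, fell by 1.05 (limma adjusted p = 0.0225), a call lost without D8A replicate 1, without either WT library, with the replicate block and with interval midpoints (adjusted p up to 0.370). Near OYE3, SPT14, needed for GPI anchor synthesis, fell by 1.35 and TRE1, a transferrin receptor-like protein, by 1.06 (limma adjusted p = 0.00777 and 0.0144). Both were lost without either WT library (adjusted p up to 0.244). The nearest other features, YDL242W beside AAD4, RDS1 and YCR108C beside AAD3, RPD3 beside AAD14, YOL166C beside AAD15, STB5 and YHR180W beside OYE2, and COX10 and DAP1 beside OYE3, did not pass. No neighbour of AAD3, AAD6, AAD14, AAD15, AAD16 or OYE2 passed. THI13, THI5, THI11 and THI12, near-identical genes of thiamine pyrimidine synthesis whose reads cannot be well separated, lie next to AAD4, AAD16, AAD10 and AAD14. THI5, beside AAD16, held 7.51 and 11.9 FPKM in D8B, 16.7 and 18.4 in D8A, and 10.1 and 12.5 in WT. Its difference of D8B minus D8A did not pass (limma adjusted p = 0.368), and 0 of 72 neighbours passed in that comparison, against 10 at an unadjusted p under 0.05.

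**Figure D4:**
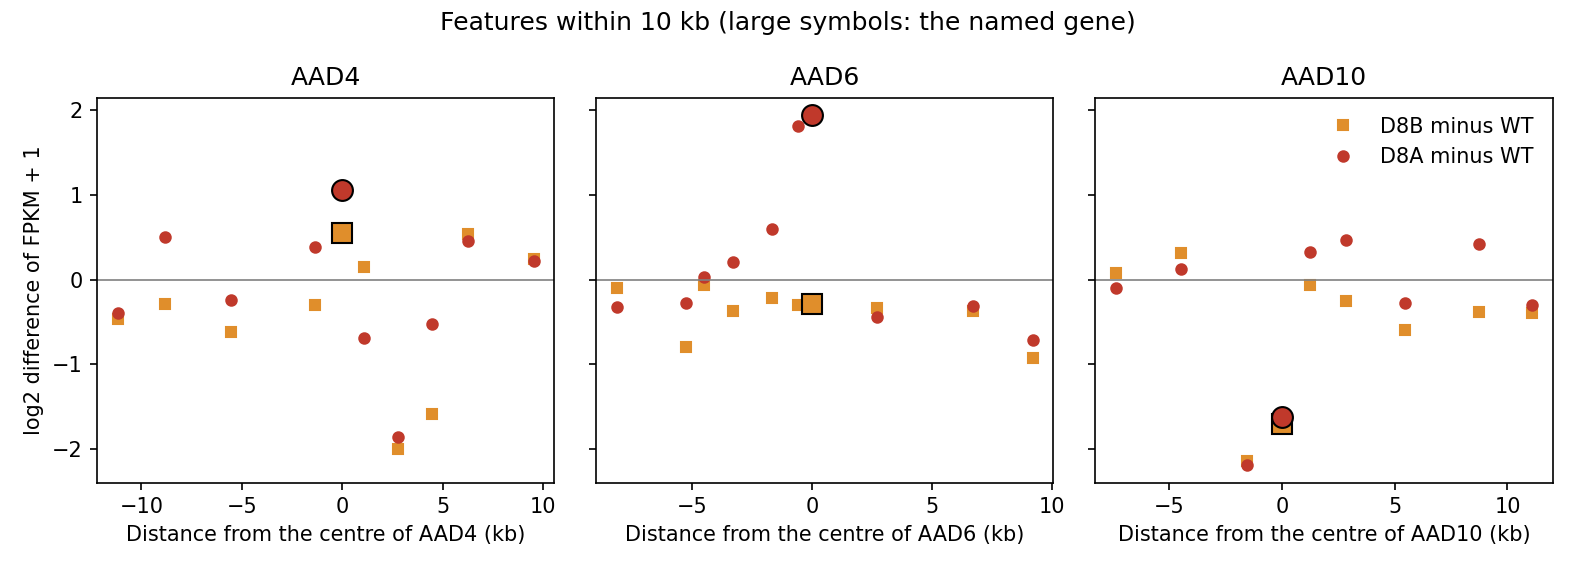
Log2 difference of FPKM + 1 (vertical axis) of features within 10 kb of AAD4, AAD6 and AAD10 against the distance between centres in kb, negative towards the left end of the chromosome. Squares are D8B minus WT, circles D8A minus WT, and large symbols the named gene. AAD6 in D8A, with AAD16 just left of it, stands far above its surroundings, and AAD10 and its left neighbour YJR154W are low in both strains.

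Other genes of related function were taken from lists, which were drawn up with earlier results of these data known. Among 21 Yap1 targets outside the family, 5 rose and 0 fell by adjusted p for the mean of both null strains (limma). By the same threshold 1.55% of all features rose and 4.91% fell. At an unadjusted p under 0.05, 10 targets rose and 1 fell, a count from which nothing is read, since no share of all features stands beside it. The median log2 difference was 0.42 against 0.01 over all features. YLR108C, an uncharacterised gene, rose by 1.86 ± 0.18 (SE; limma adjusted p = 0.00115), with 108 and 83.0 FPKM in D8B, 128 and 137 in D8A, and 31.3 and 28.8 in WT. TRX2, a thioredoxin, rose by 2.35, CCP1, the mitochondrial cytochrome c peroxidase, by 1.35, YNL134C, a putative reductase, by 1.28 and GRE2, a methylglyoxal reductase, by 1.19 (limma adjusted p = 0.00347, 0.0260, 0.0170 and 0.0481). The TRX2 call was lost without WT replicate 2 (adjusted p = 0.0718). CCP1, YNL134C and GRE2 lost theirs without either WT library and with the replicate block. CCP1 and GRE2 lost theirs without D8B replicate 1 as well, and GRE2 without D8A replicate 2, with a pseudocount of 0.1 and with no filter on low values (adjusted p up to 0.426 over the alternatives). In D8B minus D8A 0 of the 21 passed (limma), with 3 at an unadjusted p under 0.05. CCP1 (YKR066C) and the listed YKL071W and ECM4 lie on chromosome XI, which carries the insertion in WT. The part of that chromosome in their values was not tested.

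The genes that passed in the other reductase lists are read against the same shares of all features by adjusted p, 1.55% higher and 4.91% lower. Of 7 aldo-keto reductases outside the AAD family, 0 passed for the mean of both null strains (limma), with 2 at an unadjusted p under 0.05. Of 22 zinc-type alcohol and quinone reductases, YNL134C rose and ADH5, an alcohol dehydrogenase, fell by 1.16 (limma adjusted p = 0.00556), a call lost without either WT library (adjusted p up to 0.118). Of 6 flavin-dependent reductases and relatives, HBN1, a nitroreductase relative, rose by 1.30 (limma adjusted p = 0.0116), with 89.0 and 96.0 FPKM in D8B, 47.3 and 57.1 in D8A, and 22.3 and 34.2 in WT. The HBN1 call was lost without WT replicate 1 (adjusted p = 0.139). Of 7 carbonyl reductases of the GRE2 type, GRE2 and YGL039W (1.68) rose and ARI1 (-1.11) fell (limma adjusted p for YGL039W and ARI1 = 0.0177 and 0.0203). Both were lost without either WT library and with the replicate block, YGL039W also with quantile normalization and ARI1 without D8B replicate 2 (adjusted p up to 0.295). Of 11 regulators, among them YAP1, SKN7 and YBP1, PDR3, a factor of drug resistance genes, rose by 0.96 (limma adjusted p = 0.0172), lost without either WT library (adjusted p up to 0.187). The other 10 did not pass.

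Of 10 genes of aromatic aldehyde and fusel alcohol metabolism, 1 passed as higher (ATF1) and 1 as lower (ARO8) for the mean of both null strains, where 1.55% and 4.91% of all features did, and 1 fell in D8B relative to D8A, where 0.116% did (limma). This last gene, ARO10, the decarboxylase that makes aromatic aldehydes from keto acids, held 29.3 and 41.4 FPKM in D8B, 138 and 205 in D8A, and 59.2 and 61.2 in WT. It fell by 2.24 ± 0.26 (SE) in D8B relative to D8A (limma adjusted p = 0.0212), a call that was lost without either D8B library or with the replicate block (adjusted p up to 0.0944). ARO9, the aromatic aminotransferase induced by aromatic amino acids, held 17.6 and 23.9 FPKM in D8B, 57.9 and 91.0 in D8A, and 28.7 and 33.4 in WT, and its difference of -1.77 for D8B minus D8A did not pass (limma adjusted p = 0.0538). For D8A minus WT, ARO10 (1.47), ARO9 (1.20) and ATF1 (1.85), an alcohol acetyltransferase, rose and ARO8 (-1.16), the other aromatic aminotransferase, fell (limma adjusted p = 0.0225, 0.0459, 0.0169 and 0.0303). For D8B minus WT, ATF1 (1.87) and ATF2 (1.13) rose (limma adjusted p = 0.0171 and 0.0332). All of these calls against WT were lost without either WT library, and those of ARO8, ARO9, ATF2 and, in the single strains, ATF1 also without at least 1 null library. The replicate block lost the calls of ARO8, ATF2 and, in the single strains, ATF1, a pseudocount of 0.1 or no filter lost that of ARO9, and quantile normalization or median centring that of ATF2. The adjusted p over the alternatives reached 0.388.

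**Figure D5:**
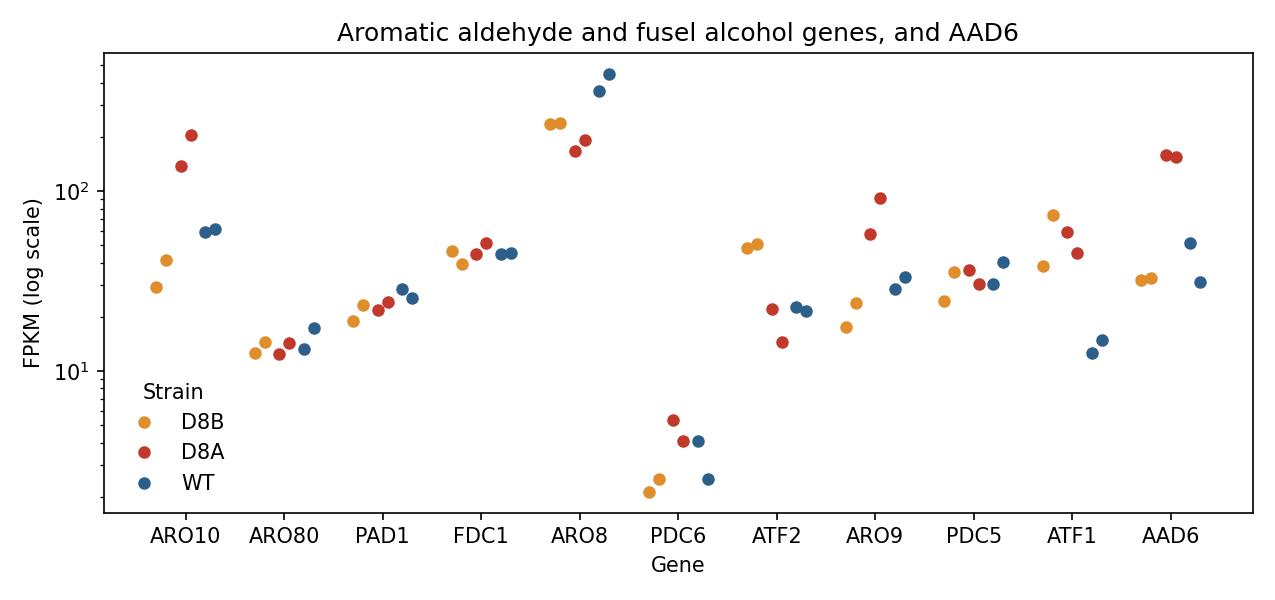
FPKM (vertical axis, log scale) of the 10 genes of aromatic aldehyde and fusel alcohol metabolism and of AAD6 in each library, with D8B, D8A and WT side by side and 1 point per library. ARO10, ARO9 and AAD6 are highest in the D8A libraries, and ATF1 is lowest in WT.

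The profile most like that of AAD6 over the 6 libraries was that of AAD16. Likeness was the root mean square difference of log2(FPKM + 1) after each gene was centred on its own mean, over 5468 features of at least 300 bp and 10 FPKM. It was 0.08 for AAD16, 0.38 for ARO10 and 0.41 for YBL065W, and 0.63 or more for every other member. For AAD4 the nearest were YOR059C, YKR011C and MAG1 (0.11 to 0.13), with OYE3 at 0.27 and AAD3 at 0.29. For OYE2 the nearest were GPM3, LSB3 and CAR2 (0.06 to 0.09) and for OYE3 WTM2, CLB2 and MND2 (0.06 each), with OYE2 and OYE3 0.22 apart. For AAD14, the flattest profile, they were YGK3, MRP17 and POP2 (0.04 each). These distances describe 6 libraries from 3 strains and were not tested.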

How the data were processed

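The authors deposited 1 table of FPKM values per library, with the bounds of a confidence interval, per the file headers. The submitters' processing notes name Bowtie2 2.1.0, TopHat2 2.0.9, Cufflinks 2.1.1 and R64, with no role or order. The sources used here give neither read length nor strand setting, and antisense partners cannot be told apart. Of 7126 features, 7051 had the status OK in all 6 libraries. Feature coordinates matched the R64 annotation for 6036 of 6048 matched identifiers. Depth was estimated from the interval bounds, of which 87.5% to 91.3% under 20 fragments were whole multiples of 1 step (tolerance 0.02). FPKM was not converted to counts.

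Log2(FPKM + 1) of 6925 features with a mean of at least 1 FPKM was fitted with limma 3.58.1 in R 4.3.3. The fit had 1 mean per strain over 6 libraries, with 3 residual and 4.7 prior degrees of freedom. Its code was run on simulated independent values with the same spread for every feature. That setting is simpler than these libraries, so the run checks the code and not the calls made here. A fold change of FPKM + 1 is understated for low genes. Tests are two-sided with Benjamini-Hochberg adjustment over all features and a threshold of 0.05. Counts at an unadjusted p under 0.05 have no share of all features beside them, and nothing is read from them. The labels do not state separate cultures, and the replicate spread behind each p-value may be technical. Members and lists were chosen with earlier results of these data known. All members were named, with neighbours within 10 kb that passed or were among the 2 nearest, and up to 4 called genes per list. Sequences are from the RefSeq genome of R64, aligned with Biopython 1.88. The alternatives were another pseudocount, filters, normalizations, interval midpoints, robust variances, a replicate block and leaving out each library.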

Additional observations from a re-analysis of the deposited data

Results flagged for a closer look

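The difference from WT was not the same in the null strains for 3 of the features named, by the test of D8B against D8A. Of these, AAD6 and AAD16 are parts of 1 annotated pseudogene and are not independent results. AAD6 had a log2 difference of -2.23 and AAD16 of -2.12 for D8B minus D8A (limma adjusted p = 0.0196 and 0.0226), each with both D8B libraries below both D8A libraries. ARO10 had -2.24 (limma adjusted p = 0.0212), likewise with both D8B libraries below both D8A libraries. Of all features, 15.1% were lower in D8B than in D8A without overlap, so this trait alone says little. The shallower depth of D8A replicate 1 (an estimated 4020000 fragments) stands beside these values, and its part in them was not tested. Without D8A replicate 1 the difference was -2.21 for AAD6 and -2.17 for AAD16, and neither was called (limma adjusted p = 0.0552 and 0.0630; range over the 16 alternatives up to 0.105 and 0.140).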

How the results depend on the processing

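Features past the threshold numbered 447 for the mean of both null strains against WT, 350 for D8A, 339 for D8B and 23 for D8B against D8A. Leaving out 1 library gave 114 to 671, 90 to 473, 98 to 477 and 10 to 104 in that order, the lowest count without WT replicate 2 in each comparison with WT and without D8B replicate 2 between the null strains. The highest counts for the mean and between the null strains came without D8A replicate 2. Without WT replicate 1 the comparisons with WT gave 201, 142 and 170. Without D8A replicate 1 there were 198 for D8A and 42 between the null strains, and without D8B replicate 1 or 2 there were 184 and 127 for D8B. With only features of 300 bp or more the counts were 948, 801, 817 and 197, and with robust variances 741, 616, 632 and 116. Interval midpoints gave 671 for the mean, 595 for D8B and 84 for D8B against D8A, and quantile normalization 685 for the mean. Between the null strains 15 were higher and 8 lower, against 8 and 8 with quantile normalization.

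Of the 9 members, 2 passed between D8B and D8A, and 0 to 2 when 1 library was left out. With quantile normalization, with median-centred libraries and with the replicate block 0 passed in limma, against 4 at an unadjusted p under 0.05 in each. No member reversed a called direction in the 16 alternatives. AAD6 and AAD16 in D8B minus WT crossed 0 without WT replicate 1 (0.06 each), and uncalled estimates also changed sign for AAD14 in all 4 comparisons and for AAD10 and OYE2 in D8B minus D8A, each in 1 setting. The causes were not tested.

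The labels do not pair the replicate numbers, and same-numbered libraries deviated together with r = 0.332 for D8B and WT, -0.148 for D8A and WT and -0.254 for D8B and D8A. The replicate block gave 187 for D8A, 213 for D8B and 9 for D8B against D8A. With the D8A numbers crossed, an alternative chosen after seeing the data, the counts were 824, 674, 709 and 91. AAD15 rests on 24 to 48 fragments, where small differences were not detectable.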
